A study of Homo sapiens with 72 samples.

Results

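The transcripts described here are those of 10 Krüppel-like factors (KLF2, KLF3, KLF4, KLF5, KLF6, KLF7, KLF9, KLF10, KLF11 and KLF13), 10 of the 61541 Ensembl genes listed in each of 11 deposited comparison tables. The genes were picked out by name from the gene symbols of the tables, and each symbol matched exactly 1 Ensembl ID. They are part of the family, and the set was chosen with earlier results of these data known. Counts of them set beside shares of all genes are therefore descriptions and not tests of the family. The study concerns G3BP1, an RNA-binding protein of stress granules, and its paralog G3BP2. Its 24 libraries used here come from human cell lines, and 48 further libraries, made for RNA editing by enzyme fusions, were not analysed here.

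Immunoprecipitated (IP) RNA was set against input RNA in 3 and 3 libraries of Flp-In T-REx 293 cells, a human embryonic kidney line. All 6 carried stable FLAG-G3BP1 induced with tetracycline at 1 ug/mL for 24 h. Experiment 1 used U2OS cells, a human osteosarcoma line, in 3 groups of 2 libraries: wild type, a G3BP1/2 knockout, and the knockout 24 h after Lipofectamine transfection of a G3BP1 transgene. Experiment 2 used the same kind of G3BP1/2 knockout throughout, in 6 groups of 2 libraries. The knockout was left untransfected, or was transfected for 24 h with wild-type G3BP1 (wild-type rescue) or with G3BP1 lacking its NTF2 domain (NTF2-deletion rescue). Each of these was sampled untreated and after 200 uM sodium arsenite for 2 h, an oxidative stress that induces stress granules. No mock-transfected group was used here, so transfection and the presence of G3BP1 cannot be told apart in any rescue comparison, and experiment 2 has no group with endogenous G3BP1. The labels do not say whether the knockout is 1 clone, nor whether the libraries of a group came from separate cultures, so the p-values may measure technical spread alone.

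Krüppel-like factors are DNA-binding proteins that share an array of zinc fingers at their C terminus and bind GC-rich and CACCC sequences. KLF2, KLF4, KLF5, KLF6 and KLF7 are known mainly as activators, KLF9, KLF10, KLF11 and KLF13 as repressors that recruit Sin3A, and KLF3 as a repressor that recruits CtBP. Several of them, KLF2, KLF4, KLF6 and KLF10 among them, are early response genes whose mRNAs are made quickly after stress, serum or growth factors and are short-lived.

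Whole reads per library were recovered from the deposited means for all 10 genes in both U2OS experiments. They are given as normalised reads, put on a common scale within an experiment through the untreated knockout libraries. Ratios within a rescue can therefore differ from those on a comparison's own scale, which the deposited fold changes use. For KLF7 in the wild-type rescue, the mean went from 706 to 795 normalised reads with arsenite. On that comparison's own scale the ratio was 1.08-fold. The libraries of a table averaged between about 11990000 and 46950000 normalised reads in genes, from the deposited base means. Of 7 markers of bone-forming cells, the matrix genes SPARC and COL1A1, the regulator RUNX2 and the phosphatase ALPL had base means of 15620, 9223, 200.5 and 159.3 in the table of arsenite in knockout cells, while COL1A2, IBSP and BGLAP were at 6.81 or less. Of 7 markers of blood, endothelial, liver and muscle cells, VWF alone was above 10 there, with a base mean of 117.6. The G3BP1 transcript was still counted in the knockout. In the authors' deposited table of experiment 1 its log2 fold change for knockout against wild type was -0.56 (SE 0.05). For knockout against rescue it was -0.69 (SE 0.04) in the authors' deposited table. In experiment 2 the authors' deposited tables gave 7.31 (SE 0.04) for the wild-type rescue and 7.75 (SE 0.05) for the NTF2-deletion rescue, both against the knockout.

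The promoters of 3 of the genes that arsenite raised in knockout cells are shown because KLF2, KLF7 and KLF6 had the largest responses of the family. Each is the run of 250 bases before the RefSeq transcription start (GRCh38.p14), 5′ to 3′ on the strand of the gene, with motif matches in capitals. RefSeq promoters were matched for 8 of the 10 genes, at 13 starts, and not for KLF3 and KLF10. The KLF2 promoter lies at chr19:16324576-16324825 on the + strand, that of KLF6 at chr10:3785210-3785459 on the - strand, and that of KLF7, at 1 of its 4 listed starts, at chr2:207167247-207167496 on the - strand.
KLF2: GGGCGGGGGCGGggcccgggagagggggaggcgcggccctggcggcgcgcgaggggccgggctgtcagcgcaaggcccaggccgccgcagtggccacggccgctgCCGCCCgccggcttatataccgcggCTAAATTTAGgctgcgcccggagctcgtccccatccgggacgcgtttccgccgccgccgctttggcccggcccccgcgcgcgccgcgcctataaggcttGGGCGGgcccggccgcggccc
KLF6: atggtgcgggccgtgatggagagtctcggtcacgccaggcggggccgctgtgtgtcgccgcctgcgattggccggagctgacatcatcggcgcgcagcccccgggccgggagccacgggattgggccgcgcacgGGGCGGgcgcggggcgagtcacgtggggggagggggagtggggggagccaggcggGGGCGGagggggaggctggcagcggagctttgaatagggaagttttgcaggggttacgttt
KLF7: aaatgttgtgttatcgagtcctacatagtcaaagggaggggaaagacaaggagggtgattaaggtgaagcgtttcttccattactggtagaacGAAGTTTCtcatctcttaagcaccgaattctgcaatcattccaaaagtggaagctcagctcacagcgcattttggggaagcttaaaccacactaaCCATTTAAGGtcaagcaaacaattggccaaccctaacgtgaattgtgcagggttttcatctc
Motifs were searched on both strands: the GC box GGGCGG, the CACCC box CCACCC, AP-1 TGANTCA, the cyclic AMP response element TGACGTCA, a heat shock element GAANNTTC, the TATA box TATAAA, the antioxidant response element TGACNNNGC, and the serum response element and the MEF2 site by name. The MEF2 site was added after the KLF2 sequence was seen, and the KLF7 start was picked after its matches were seen. KLF2 held 4 GC boxes and, from 120 to 111 bases before its start, 1 MEF2 match. KLF6 held 2 GC boxes. The KLF7 start shown held 1 heat shock element and, from 62 to 53 bases before the start, 1 serum response element, and none of its other 3 starts held either. Another KLF7 start held 4 GC boxes and another 2 CACCC boxes. Of 35114 promoter windows of this length, 42.6% held a GC box, 2.8% a MEF2 match, 5.78% this heat shock element and 1.16% a serum response element. Among the others, KLF11 held 8 GC boxes over 2 starts and, from 176 to 169 bases before 1 of them, a cyclic AMP response element, KLF4 held 4 GC boxes, KLF13 held 3 GC boxes and 1 CACCC box, and KLF5 held a TATA box at 1 start and 2 GC boxes at the other. KLF9 held none of the motifs. A match is a description of the letters and not a site of binding.

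Arsenite raised 4 of 9 tested KLF transcripts in knockout cells: KLF2, KLF6, KLF7 and KLF10. The other 5 (KLF3, KLF5, KLF9, KLF11 and KLF13) did not pass the test, and KLF4 had too few reads for the authors to adjust its p-value. Over all 15497 genes tested in that table, 19.4% were called with 8.56% higher and 10.9% lower. The median log2 fold change of the 10 transcripts was 0.28, against -0.01 over all genes whose base mean reached 100. A call here and below is an adjusted p under 0.05 from the Wald test of DESeq2, as deposited.

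KLF7, an activator known from nerve cell growth, had normalised read counts of 871 and 857 in the 2 untreated knockout libraries and of 2147 and 2145 in the 2 arsenite-treated ones. The groups stood far apart and the libraries of each were nearly equal. The ratio of the means was 2.48-fold, and the authors' deposited table gave a log2 change of 1.29 (SE 0.09 and adjusted p = 1.94e-45 by DESeq2). This placed KLF7 above 99.1% of the genes whose base mean reached 10.

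KLF6, an activator known from liver injury, rose from 655 and 637 normalised reads to 1407 and 1453. No untreated library came near a treated one. The ratio of means was 2.22-fold and the log2 fold change in the authors' deposited table was 1.12 (SE 0.10, adjusted p = 3.70e-26 by DESeq2).

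KLF2, an activator best known from blood vessel lining cells and resting T cells, was the scarcest of the 4 in untreated knockout cells, with 37 and 57 reads. These correspond to 36.5 and 62.9 normalised reads, against 207 and 135 after arsenite. The treated libraries were both higher but differed from each other. The ratio of means was 3.44-fold, and with single libraries left out the log2 ratio of 1.78 ranged from 1.44 to 2.23. The authors' deposited table gave a log2 change of 1.39 (SE 0.26 and adjusted p = 2.34e-06 by DESeq2).

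KLF10, a TGF-beta inducible early gene whose protein represses through Sin3A, went from 947 and 953 normalised reads to 1544 and 1547. The libraries within each group agreed closely and the groups did not overlap. The ratio of means was 1.63-fold, with a log2 change of 0.69 (SE 0.09 and adjusted p = 5.95e-12 by DESeq2) in the authors' deposited table.

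**Figure D1:**
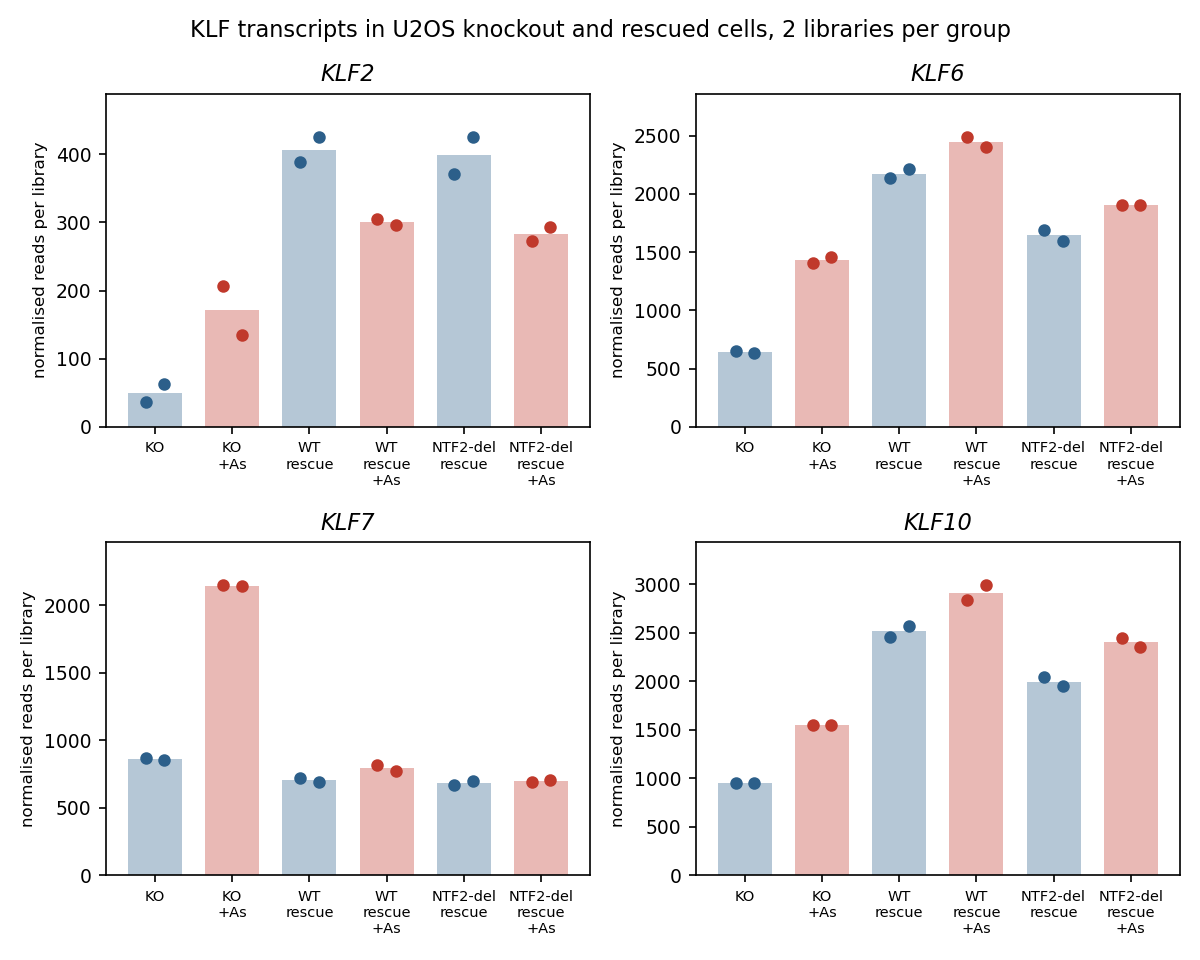
Normalised reads per library (y axis, linear from 0) of KLF2, KLF6, KLF7 and KLF10 in the 6 groups of experiment 2. Points are the 2 libraries of a group, bars their mean, and red marks arsenite. KLF7 is highest in the arsenite-treated knockout, at a mean of 2146, and KLF2, KLF6 and KLF10 are higher in every rescued library than in any knockout library.

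In rescued cells the same 2 h of arsenite gave other responses. In both rescues KLF2 fell, KLF10 rose by a small amount, and KLF6 and KLF7 did not pass the test, so that 2 of 9 tested transcripts were called in each. The background was 20.4% of all tested genes called in the wild-type rescue (8.18% higher, 12.2% lower) and 8.57% in the NTF2-deletion rescue (2.43% higher, 6.14% lower). The medians over the 10 transcripts were 0.05 and 0.08, against 0.01 and 0.01 over all genes whose base mean reached 100.

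KLF2 had 388 and 425 normalised reads in the untreated wild-type rescue and 306 and 296 after arsenite. In the NTF2-deletion rescue the values were 371 and 425, then 273 and 294. In both rescues each treated library lay below each untreated one. The log2 fold changes in the authors' deposited tables were -0.45 (SE 0.10, adjusted p = 0.000160 by DESeq2) and -0.38 (SE 0.12, adjusted p = 0.0204 by DESeq2).

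KLF10 had 2453 and 2573 normalised reads in the untreated wild-type rescue and 2833 and 2986 after arsenite. The NTF2-deletion rescue had 2042 and 1951, then 2447 and 2354. The groups did not overlap in either rescue. Log2 fold changes in the authors' deposited tables were 0.15 (SE 0.05, adjusted p = 0.0113 by DESeq2) and 0.24 (SE 0.06, adjusted p = 0.00311 by DESeq2). At an adjusted p under 0.01 each rescue kept 1 of its 2 calls, KLF2 in the wild-type rescue and KLF10 in the NTF2-deletion rescue.

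KLF6 had 2135 and 2209 normalised reads in the untreated wild-type rescue and 2487.5 and 2401 with arsenite, and the NTF2-deletion rescue had 1693 and 1594, then 1901 and 1901. The adjusted p-values in the authors' deposited tables were 0.0784 and 0.0696 by DESeq2, so KLF6 was not called in either rescue. Its libraries did not overlap, but neither did those of 5 and 6 of the 9 transcripts compared, KLF6 included. The share of all genes that separate in this way was not computed, so the separation lends no weight to a response. KLF7 had 722 and 690 normalised reads in the untreated wild-type rescue and 815 and 774 with arsenite, and the NTF2-deletion rescue had 672 and 702, then 694 and 704. The authors' deposited tables gave it log2 fold changes of 0.11 (SE 0.07) and 0.01 (SE 0.09), neither of which was called.

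The arsenite responses themselves differed between knockout and rescued cells. In a difference test (the difference of 2 log2 fold changes over its standard error, two-sided, Benjamini-Hochberg adjusted over all genes whose base mean reached 10), KLF2, KLF6, KLF7 and KLF10 responded less in each rescue than in the knockout, 4 of 9 each time. Over all genes 4.51% differed for the wild-type rescue and 7.12% for the NTF2-deletion rescue, with 2.68% and 3.08% smaller and 1.82% and 4.04% larger. Both tests share the knockout libraries.

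For KLF2 the response was smaller by a log2 difference of -1.84 (SE 0.28, adjusted p = 1.12e-08 by Benjamini-Hochberg) in the wild-type rescue and -1.77 (SE 0.29, adjusted p = 8.29e-08) in the NTF2-deletion rescue. KLF2 moved in opposite directions, up in the knockout and down in the rescues. KLF7 differed by -1.18 (SE 0.12, adjusted p = 6.31e-22 by Benjamini-Hochberg) and -1.28 (SE 0.13, adjusted p = 1.45e-20). KLF6 differed by -1.01 (SE 0.11, adjusted p = 4.59e-17 by Benjamini-Hochberg) and -0.93 (SE 0.12, adjusted p = 2.54e-12). KLF10 differed least, by -0.54 (SE 0.10, adjusted p = 2.01e-05 by Benjamini-Hochberg) and -0.45 (SE 0.11, adjusted p = 0.00189).

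The other 5 transcripts had differences between -0.24 and 0.03 that were not called. KLF11 had the largest of these in the wild-type rescue, -0.24 with a 95% interval from -0.55 to 0.07. KLF5 had -0.22 in the NTF2-deletion rescue, with a 95% interval from -0.56 to 0.11. These intervals do not show that the responses were alike.

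**Figure D2:**
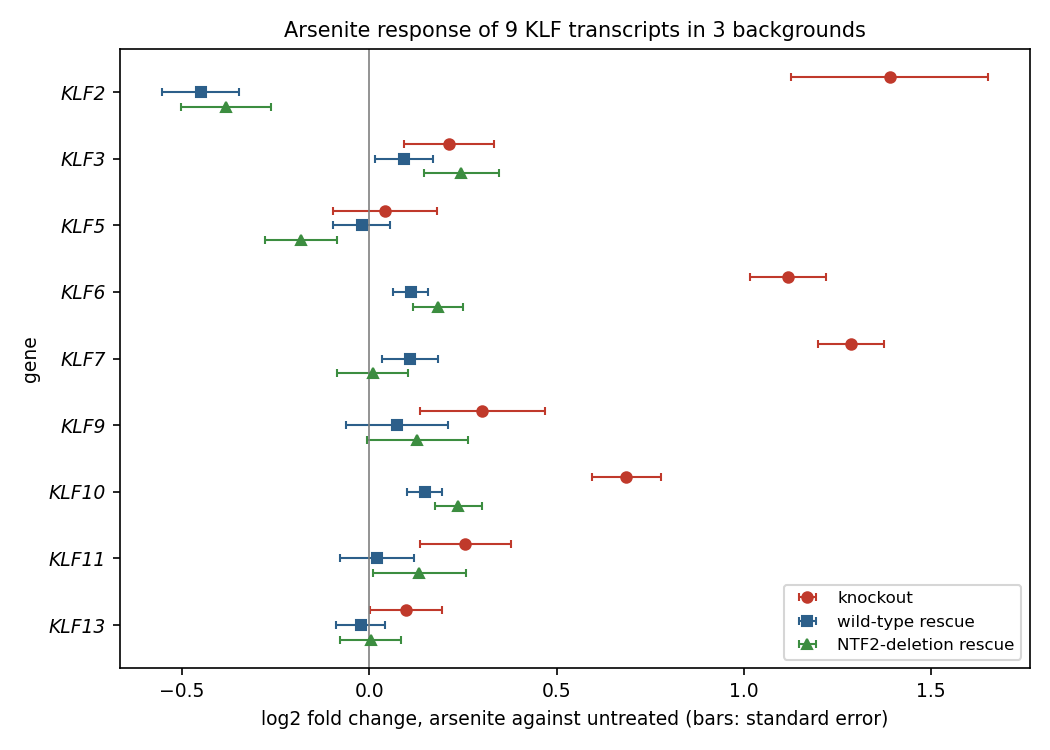
Deposited log2 fold change of arsenite against untreated (x axis) for 9 KLF transcripts (y axis) in knockout cells, the wild-type rescue and the NTF2-deletion rescue. Bars are the authors' standard errors. KLF2, KLF6, KLF7 and KLF10 lie at 0.69 or more in the knockout, and KLF2 lies below 0 in both rescues.

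The 2 rescues were compared directly in each state. None of 9 transcripts differed in arsenite response between them by the difference test, with unadjusted p from 0.186 to 0.804 and 0.328% of all genes called. The largest difference was KLF5, 0.16 (SE 0.12) on the log2 scale with a 95% interval from -0.08 to 0.40. For KLF7 the interval ran from -0.14 to 0.33 and for KLF2 from -0.38 to 0.24. Without arsenite no transcript was called, with 0.0185% of all genes called, although KLF6, KLF10 and KLF11 had unadjusted p under 0.05. KLF6 was higher in the wild-type rescue by 0.40 (95% interval 0.14 to 0.67, unadjusted p = 0.00284), KLF10 by 0.33 (0.09 to 0.57, unadjusted p = 0.00611) and KLF11 by 0.46 (0.05 to 0.86, unadjusted p = 0.0281). With arsenite none was called either, against 0.0785% of all genes, and KLF6 and KLF10 had unadjusted p of 0.00338 and 0.0132. The arsenite responses of the 2 rescues share no libraries. The other 2 tests, without and with arsenite, sum the errors of tables that share the untreated knockout libraries, which overstates the standard error, widens the intervals and makes a call less likely. The normalised reads of KLF6 and KLF10 given above did not overlap between the rescues in either state. Neither did those of KLF3, KLF5, KLF11 and KLF13, and all of these were higher in the wild-type rescue. KLF2, KLF7 and KLF9 overlapped without arsenite. With arsenite they too were apart, so that all 9 transcripts were then higher in the wild-type rescue. The 2 rescues are linked only through the scale set by the knockout libraries, and an offset of that scale between them was not tested. The share of all genes that separate in this way was not computed, so the separation lends no weight to a difference in any of them.

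Before any arsenite, both rescues already differed from the knockout in 7 of the 10 transcripts. KLF2, KLF5, KLF6 and KLF10 were higher in each rescue, and KLF7, KLF9 and KLF11 were lower. The authors' deposited tables called 42.1% of all tested genes in the wild-type rescue (23.0% higher, 19.1% lower) and 41.5% in the NTF2-deletion rescue (22.8% higher, 18.7% lower). Bone-lineage markers went both ways: in the wild-type rescue RUNX2 was at -1.24, SPARC at -1.21, COL1A1 at -1.56 and BGLAP at -0.41, and ALPL at 0.55 and COL1A2 at 0.44 on the log2 scale, from the authors' deposited table. The endothelial marker VWF was at -2.89 in the authors' deposited table, and the part of these genes in the KLF differences was not tested. The whole tables were shifted: the median of all genes whose base mean reached 100 was 0.18 and 0.17 on the log2 scale, and 0.22 and 0.19 for the arsenite-treated rescues against the untreated knockout. Relative to these medians the same 7 transcripts were called in both rescues. KLF13 was then also called lower in both, at -0.26 and -0.38 (adjusted p = 0.0163 and 0.000370 by Benjamini-Hochberg), and KLF3 was called lower in the NTF2-deletion rescue, at -0.33 (adjusted p = 0.0282 by Benjamini-Hochberg).

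KLF2 had the largest difference of the family. Its mean rose from 49.7 ± 18.7 normalised reads (SD, n = 2) in the knockout to 406 ± 26.2 (SD, n = 2) in the wild-type rescue and 398 ± 38.4 (SD, n = 2) in the NTF2-deletion rescue. The ratios were 8.17-fold and 8.00-fold. The authors' deposited tables gave log2 fold changes of 2.91 (SE 0.24, adjusted p = 1.55e-31 by DESeq2) and 2.88 (SE 0.25, adjusted p = 1.81e-30), above 99.6% of genes in each table. The order of the KLF2 means was untreated knockout, treated knockout, both treated rescues, both untreated rescues. Between the 2 rescues KLF2 differed by 0.03 (95% interval -0.64 to 0.71) untreated and by 0.10 (-0.61 to 0.81) treated, neither called.

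KLF6 rose 3.36-fold in the wild-type rescue and 2.55-fold in the NTF2-deletion rescue, with log2 fold changes of 1.74 (SE 0.09) and 1.34 (SE 0.10) in the authors' deposited tables. KLF10 rose 2.64-fold and 2.10-fold, with 1.40 (SE 0.08) and 1.07 (SE 0.09) in the authors' deposited tables. For both genes each of the 8 rescued libraries lay above each of the 4 knockout libraries, treated ones included.

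KLF5, an activator of epithelial growth, had 447 and 425 normalised reads in the knockout, 722 and 744 in the wild-type rescue and 693 and 699 in the NTF2-deletion rescue. The rescued libraries were all higher. The log2 fold changes were 0.74 (SE 0.13) and 0.67 (SE 0.13) in the authors' deposited tables. Arsenite left KLF5 uncalled in all 3 backgrounds, with log2 fold changes from -0.18 to 0.04.

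KLF9, a glucocorticoid- and thyroid hormone-responsive repressor, had 300 and 256 normalised reads in the knockout, 182 and 154 in the wild-type rescue and 162 and 151 in the NTF2-deletion rescue. All rescued libraries were lower. The authors' deposited tables gave log2 fold changes of -0.70 (SE 0.21) and -0.81 (SE 0.21). KLF11, like KLF10 a TGF-beta inducible repressor, had 551 and 554 in the knockout, 420 and 387 in the wild-type rescue and 308 and 277 in the NTF2-deletion rescue. It was lower in every rescued library, by -0.45 (SE 0.14) and -0.90 (SE 0.15) in the authors' deposited tables, while KLF10 was higher. KLF7 was lower by -0.29 (SE 0.11) and -0.33 (SE 0.11) in the authors' deposited tables.

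As deposited, KLF3 and KLF13 were called neither for arsenite in any background nor for either rescue against the knockout without arsenite. Over the 12 libraries KLF3 ranged between 511 and 753 normalised reads and KLF13 between 982 and 1285. KLF4 had between 0 and 8 reads per library in experiment 2 and between 4 and 17 in experiment 1, so that small changes in it were not detectable at this depth. It was not called in any table where the authors adjusted its p-value, which were all but the 3 arsenite responses. The 2 libraries of arsenite-treated knockout cells held 6 and 0 KLF4 reads.

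**Figure D3:**
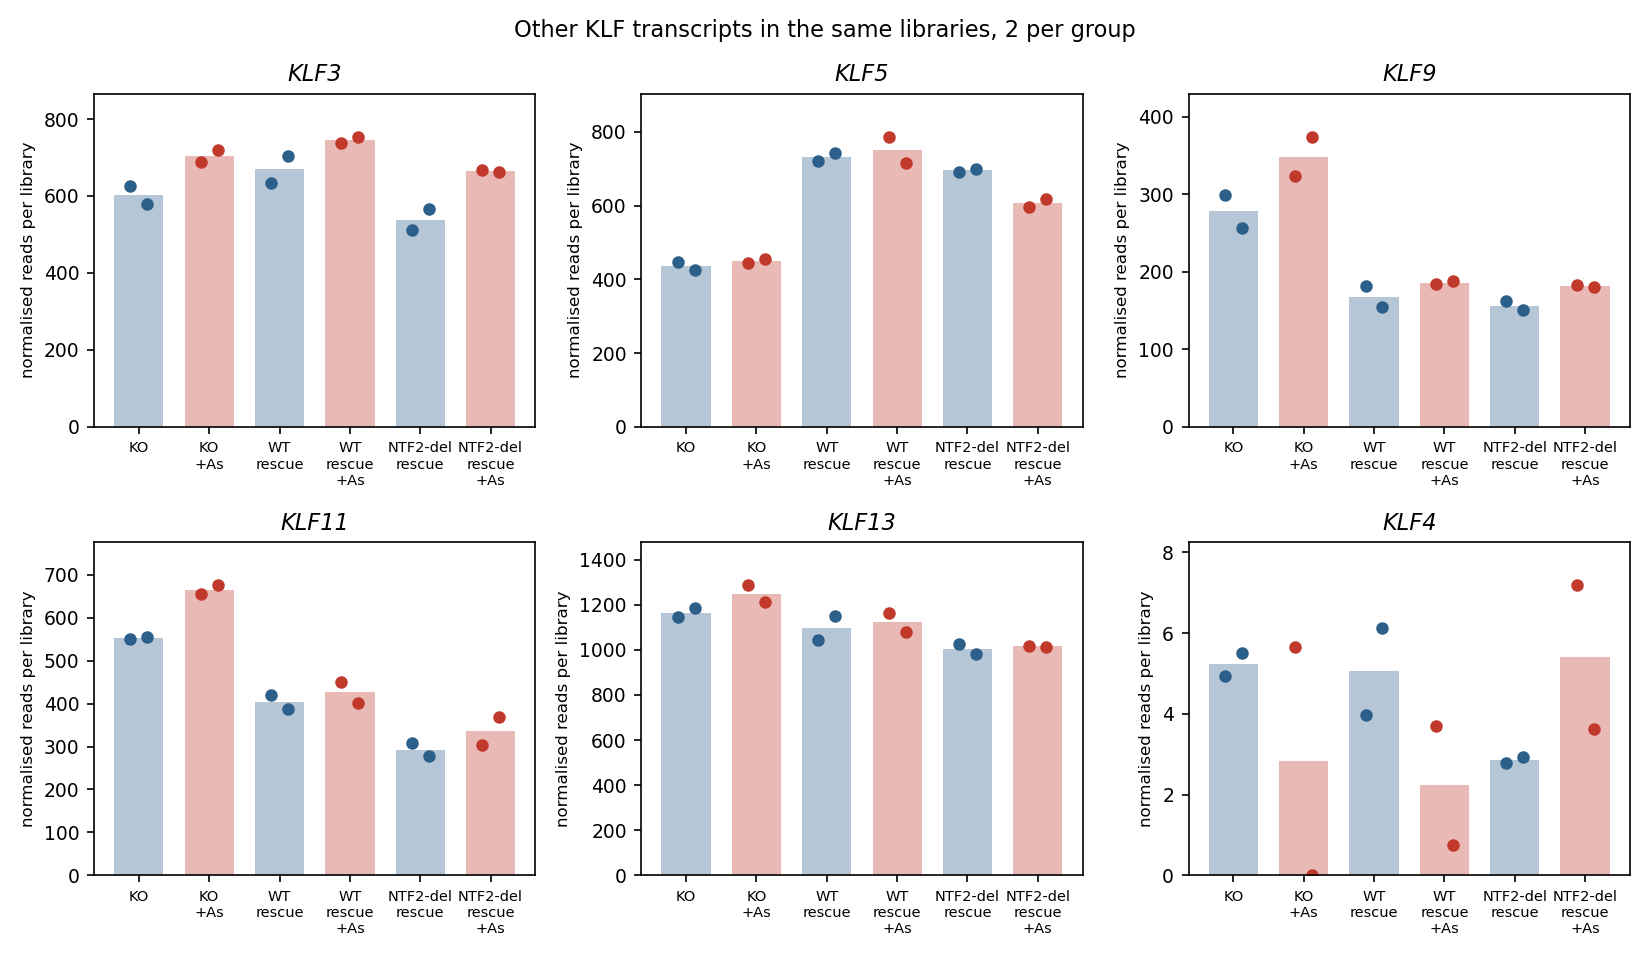
Normalised reads per library (y axis, linear from 0, scaled per gene) of KLF3, KLF5, KLF9, KLF11, KLF13 and KLF4 in the 6 groups of experiment 2. Points are libraries and bars are means. KLF5 is higher and KLF9 and KLF11 are lower in rescued cells, and KLF4 stays under 8.

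After arsenite, 7 of 9 transcripts differed between the wild-type rescue and the knockout, and 6 of 9 between the NTF2-deletion rescue and the knockout, by the difference test with Benjamini-Hochberg adjustment. The backgrounds were 45.4% (26.1% larger, 19.3% smaller) and 43.4% (24.3% larger, 19.2% smaller) of all genes. Each value is the difference of 2 comparisons with the same untreated knockout libraries, whose summed errors overstate its standard error. KLF2 remained higher by 1.13 (SE 0.36) and 1.02 (SE 0.37), KLF6 by 0.80 (SE 0.13) and 0.43 (SE 0.14), and KLF10 by 0.92 (SE 0.12) and 0.65 (SE 0.12). With the shrinkage undone KLF2 was not called, at 0.83 and 0.74 (adjusted p = 0.106 and 0.172 by Benjamini-Hochberg). Centring ended the NTF2-deletion call of KLF2 (0.82, adjusted p = 0.0613 by Benjamini-Hochberg) and of KLF6 (0.23, adjusted p = 0.164). It also added 2 calls, KLF13 lower in each rescue, where the uncentred differences of -0.15 and -0.29 were not called. KLF7 was lower by -1.41 (SE 0.13) and -1.59 (SE 0.14), KLF9 by -0.87 (SE 0.25) and -0.90 (SE 0.26), and KLF11 by -0.63 (SE 0.18) and -0.97 (SE 0.19). KLF5 was called higher in the wild-type rescue alone (0.74, SE 0.19), and in the NTF2-deletion rescue its adjusted p was 0.0557 by Benjamini-Hochberg.

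The tables that set arsenite-treated rescued cells against untreated knockout cells called 7 of 10 transcripts each, beside 44.9% (25.1% higher, 19.8% lower) and 43.0% (23.3% higher, 19.6% lower) of all tested genes. KLF2, KLF5, KLF6 and KLF10 were higher in both, KLF9 and KLF11 lower in both. KLF3 was called higher (0.30, SE 0.11) in the wild-type rescue and KLF7 lower (-0.30, SE 0.11) in the NTF2-deletion rescue, per the authors' deposited tables. Relative to the median the KLF3 call was lost (0.08, adjusted p = 0.574 by Benjamini-Hochberg), KLF7 was called lower in the wild-type rescue too (-0.34, adjusted p = 0.00161), KLF5 in the NTF2-deletion rescue was not called (0.28, adjusted p = 0.0597), and KLF13 was called lower in both (-0.28 and -0.39).

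Experiment 1 asked the same of cells with and without endogenous G3BP. Knockout cells had less KLF2, KLF5, KLF6 and KLF10 and more KLF3, KLF11 and KLF13 than wild-type cells, 7 of 10 transcripts against 37.8% of all tested genes (18.4% higher, 19.4% lower). KLF6 had 2192 and 2075 normalised reads in the knockout and 3678 and 3455 in wild-type cells. This was a log2 change of -0.74 (SE 0.07 and adjusted p = 3.68e-22 by DESeq2) in the authors' deposited table. KLF2 had 204 and 128 in the knockout and 331 and 350 in wild-type cells, and the authors' deposited table gave -0.96 (SE 0.22, adjusted p = 5.34e-05 by DESeq2). KLF2 was lower in both knockout libraries, and its log2 ratio of -1.04 ranged from -1.41 to -0.74 with single libraries left out. KLF5 was at -0.37 (SE 0.09) and KLF10 at -0.28 (SE 0.07) in the authors' deposited table. KLF13 was at 0.33 (SE 0.07), KLF11 at 0.25 (SE 0.09) and KLF3 at 0.20 (SE 0.08) in the authors' deposited table.

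Against the G3BP1 rescue of experiment 1, knockout cells had less KLF2, KLF5, KLF6 and KLF10 and more KLF7, KLF9, KLF11 and KLF13, 8 of 10 transcripts against 37.6% of all tested genes (16.1% higher, 21.5% lower). The authors' deposited table gave -0.68 (SE 0.21) for KLF2, -0.67 (SE 0.07) for KLF6, -0.52 (SE 0.06) for KLF10 and -0.38 (SE 0.08) for KLF5. It gave 0.34 (SE 0.12) for KLF9, 0.30 (SE 0.08) for KLF11, 0.28 (SE 0.06) for KLF13 and 0.24 (SE 0.07) for KLF7 in the authors' deposited table. The 2 experiments share no libraries. All 4 transcripts called higher in either rescue of experiment 2 were among the 4 called higher in the rescue of experiment 1. The 3 called lower were among 4 called lower there, the other being KLF13. Over all genes tested in both, 61.9% of the genes called higher in the wild-type rescue of experiment 2 and 54.6% of those called lower were called the same way in experiment 1, and for the NTF2-deletion rescue the shares were 63.4% and 55.5%. Taken from the calls of experiment 1, the shares were 62.0% and 58.8% for the wild-type rescue and 63.2% and 59.1% for the NTF2-deletion rescue. The difference in size between experiments was not tested. KLF7 and KLF9, called lower in each rescue, were not called for knockout against wild type, the comparison without transfection. They were at 0.09 (SE 0.07) and 0.24 (SE 0.12) there in the authors' deposited table.

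Wild-type cells and the rescue of experiment 1 differed in 2 of 10 transcripts, with 35.6% of all tested genes called (15.2% higher, 20.4% lower). KLF10 was lower in wild-type cells, with 3519 and 3426 normalised reads against 4162 and 4066 in the rescue. The log2 fold change was -0.25 (SE 0.06, adjusted p = 0.000112 by DESeq2) in the authors' deposited table. KLF3 had 2112 and 2117 against 2454 and 2424.5, with -0.22 (SE 0.07, adjusted p = 0.00812 by DESeq2) in the authors' deposited table. In neither gene did the groups overlap. KLF2, KLF5 and KLF6, which differed between knockout and wild type, did not pass here, with 0.21 (SE 0.17), -0.02 (SE 0.08) and 0.05 (SE 0.06) in the authors' deposited table.

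**Figure D4:**
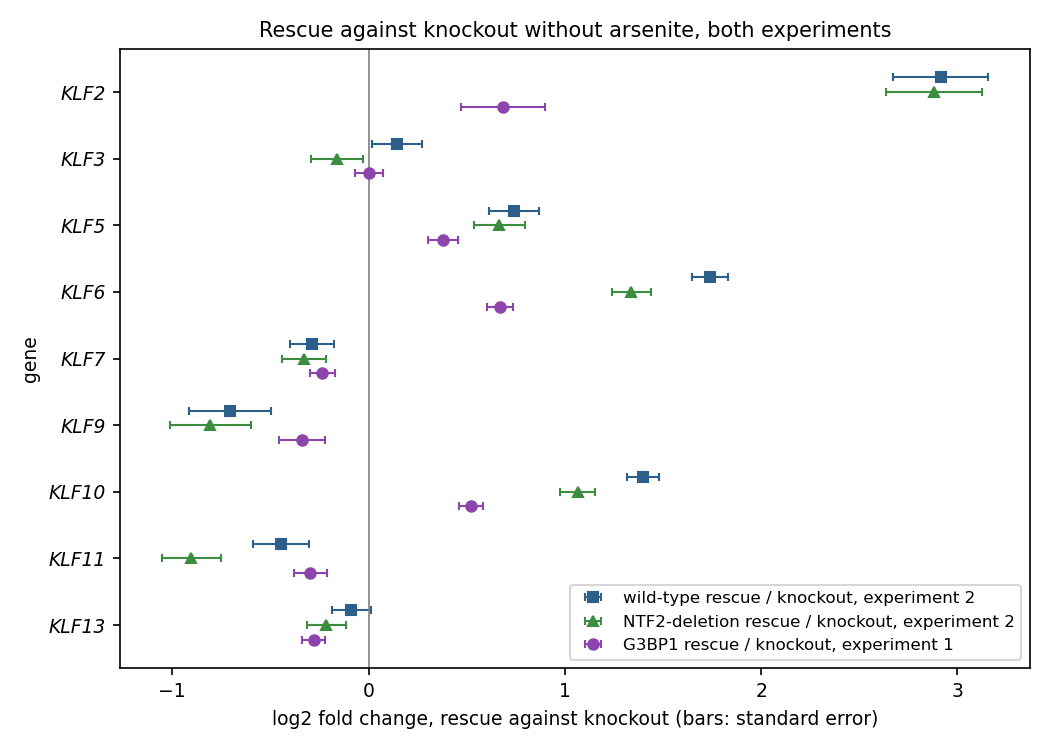
Deposited log2 fold change of rescued against knockout cells without arsenite (x axis) for 9 KLF transcripts (y axis), in both rescues of experiment 2 and in experiment 1, whose deposited sign is turned. Bars are the authors' standard errors. KLF2, KLF5, KLF6 and KLF10 lie to the right of 0 and KLF7, KLF9 and KLF11 to the left in all 3.

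The immunoprecipitate asked which of these mRNAs came down with FLAG-G3BP1. KLF2 alone was called enriched, and KLF3, KLF5, KLF7, KLF9 and KLF13 were called depleted. This table called 56.1% of all genes tested, 24.7% higher and 31.4% lower in the immunoprecipitate, so 6 of 10 is close to that background. Across genes whose base mean reached 100 the Wald statistic had a robust spread of 9.34. With each statistic divided by this spread none of the 10 was called, KLF13 at -12.86 included. The spread also holds any true enrichment and depletion among these genes, so this scaling cannot show that the calls are false. The median of all genes was 0.12, and that of the 10 transcripts was -0.29.

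KLF2 had 25, 31 and 21 reads in the 3 immunoprecipitates and 10, 8 and 12 in the 3 inputs. These were 25.3 ± 4.20 normalised reads (SD, n = 3) against 10.1 ± 3.18 (SD, n = 3), a ratio of 2.51-fold. Every immunoprecipitate lay above every input, on few reads. The authors' deposited table gave a log2 change of 1.26 (SE 0.49 and adjusted p = 0.0190 by DESeq2). KLF7 had 43, 46 and 12 reads in the immunoprecipitates and 86, 118 and 89 in the inputs, which was 3.11-fold more in the input after normalisation. One immunoprecipitate was far lower than the others, and all 3 lay below the inputs. The authors' deposited table gave -1.56 (SE 0.33, adjusted p = 6.52e-06 by DESeq2).

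KLF13 was the most depleted, at -2.30 (SE 0.18) in the authors' deposited table, with 9.95% of genes below it. KLF5 was at -0.73 (SE 0.19), KLF9 at -0.72 (SE 0.14) and KLF3 at -0.38 (SE 0.14) in the authors' deposited table. KLF6, KLF10, KLF11 and KLF4 were not called, at -0.20 (SE 0.16), 0.22 (SE 0.21), 0.18 (SE 0.23) and 0.23 (SE 0.23) in the authors' deposited table. Of the 4 transcripts that arsenite raised in the knockout, then, KLF2 was called enriched, KLF7 depleted, and KLF6 and KLF10 neither. KLF4, nearly absent from U2OS cells, had a base mean of 111 in this kidney-derived line. The immunoprecipitation was made in another cell line than the U2OS experiments.

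**Figure D5:**
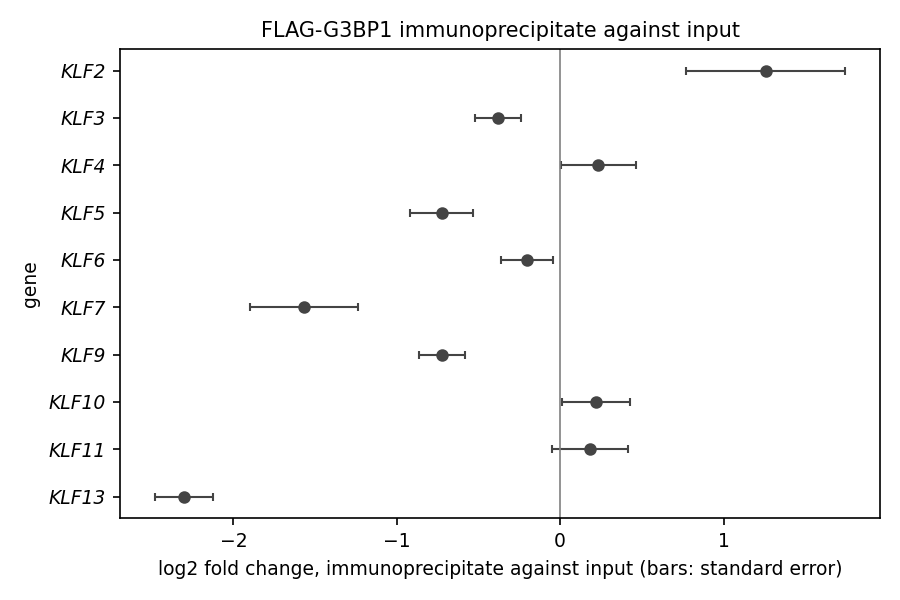
Deposited log2 fold change of FLAG-G3BP1 immunoprecipitate against input (x axis) for the 10 KLF transcripts (y axis), with the authors' standard errors. KLF2 lies at 1.26, KLF13 at -2.30 and KLF7 at -1.56.

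Related genes were taken from 5 lists. For arsenite in the knockout their counts stand beside 8.56% of all tested genes called higher and 10.9% lower. Of 17 other KLF and SP genes, which share the zinc fingers, 9 were tested for arsenite in the knockout and 2 were called higher. These were SP2 at 0.40 (SE 0.14) and the low-level KLF15 at 0.85 (SE 0.32), and the ubiquitous activator SP1 was at -0.04 (SE 0.08) in the authors' deposited table. Of 12 tested genes of the MEK5-ERK5-MEF2 pathway and of serum response factor signalling, which are known inducers of KLF2, KLF4 and other early genes, MAP3K2, MEF2A, MEF2D and SRF were called higher and ELK3 lower in the treated knockout. SRF, the factor that binds the serum response element, rose by 2.53 (SE 0.08), and ELK3, one of its partners, was at -0.35 (SE 0.12) in the authors' deposited table. In the wild-type rescue SRF rose by 0.27 (SE 0.05), and in the NTF2-deletion rescue it was at 0.11 (SE 0.07), not called, in the authors' deposited tables.

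The TGF-beta list, inducers of KLF10 and KLF11, had 4 genes higher and 6 lower of 14 in the treated knockout, with a median of -0.10, against 8.56% higher and 10.9% lower over all genes. Its inhibitor SMAD7 rose by 0.52 (SE 0.15) and its receptor TGFBR1 was at -0.62 (SE 0.10) in the authors' deposited table. Without arsenite, 8 of these 14 were lower and 5 higher in each rescue, where 19.1% and 18.7% of all tested genes were lower and 23.0% and 22.8% higher. Of 19 partners and turnover factors, 3 were higher and 1 lower in the treated knockout. ZFP36, which destabilises AU-rich mRNAs, rose by 3.21 (SE 0.17) and the deacetylase HDAC2 was at -0.29 (SE 0.10) in the authors' deposited table. In each rescue without arsenite 12 of these 19 were higher, against 23.0% and 22.8% of all tested genes. Of 14 tested genes described as KLF targets, 2 were higher and 2 lower in the treated knockout, with a median of -0.16. The clock gene PER1 rose by 0.87 (SE 0.13) and the cell cycle inhibitor CDKN1B was at -0.49 (SE 0.11) in the authors' deposited table.

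Over the 7 tables of experiment 2 and 10056 genes whose base mean reached 100 in each, the genes nearest to KLF10 by Euclidean distance of deposited log2 fold changes were VPS37B (0.186), ARAP2 (0.198) and USP53 (0.235). Those nearest to KLF2 were farther off: MYC (1.10), ERRFI1 (1.17) and MAP2K3 (1.26). In the authors' deposited tables MYC had 1.34 for arsenite in the knockout, -0.13 and -0.20 in the rescues, and 2.37 and 2.15 for the rescues against the knockout. The tables share libraries, so these distances describe likeness over these groups only.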

How the data were processed

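Libraries were directional and poly-A selected, per the labels' protocols. Reads were aligned with STAR (2.7.0f, or 1.5.3 for experiment 2) and compared with DESeq2 2.11.40.6, per the submitters' processing notes. The genome build, the annotation and the use of strand in counting are not given in the sources used here, so overlapping and antisense genes cannot be told apart.

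The deposited base mean is a signal, the mean of normalised reads over both groups of a table. The deposited log2 fold change (first over second group) has the authors' standard error and had been pulled toward 0 by a prior (width 0.278 to 2.06, computed here from the standard errors). The deposited Wald score is the fold change over its error, and the deposited p-value and adjusted p-value are the authors' own. The 4 summary lines of read counting in each table were left out. No per-library column was used or left unused (0 columns).

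Size factors per library were found from the smallest steps between base means, and whole reads were solved for each gene. All 10 genes had exactly 1 set of reads in both U2OS experiments. In 300 random genes per experiment this held for 298 and 300. In the immunoprecipitation it was solved for KLF2 and KLF7 only. The reads carry no replicate numbers and no count test was run on them. Libraries of a group differed by more than read sampling, with mean squared standardised differences from 1.33 to 2.31 where sampling gives about 1, so no pair was taken for 1 library deposited again. This does not show separate cultures. Differences of 2 tables were tested with z scores in Python 3 (scipy), two-sided, Benjamini-Hochberg adjusted, and checked on simulated data.

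The members, gene lists and tests were chosen with earlier results of these data known. Named genes are all 10 members, G3BP1 and G3BP2, the highest and lowest gene of each list, base mean 100 or more, for arsenite in the knockout, the list genes behind counts of 5 or fewer where named, and the 3 genes nearest to each member called in all 3 arsenite responses. Promoters came from RefSeq. Alternatives were a threshold of 0.01, other adjustment sets, centring on the median, undone shrinkage, ratios of recovered reads and leaving out single libraries.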

Additional observations from a re-analysis of the deposited data

Results flagged for a closer look

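Differences in arsenite response between backgrounds were called for 4 transcripts, by the difference test with Benjamini-Hochberg adjustment. In the wild-type rescue minus the knockout they were -1.84 for KLF2, -1.01 for KLF6, -1.18 for KLF7 and -0.54 for KLF10 on the log2 scale. In the NTF2-deletion rescue minus the knockout they were -1.77 for KLF2, -0.93 for KLF6, -1.28 for KLF7 and -0.45 for KLF10. KLF2, KLF6 and KLF10 started from higher levels in the untreated rescues than in the untreated knockout, whereas KLF7 started from a lower one. The part of the starting level and of transfection in these differences was not tested. The prior widths of the tables differed too, and with the shrinkage undone each of these differences was still called. With 2 or 3 libraries in every group, no sample could be tested as standing apart from its group.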

How the results depend on the processing

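No paired analysis was possible because the deposited tables hold no per-library columns and reads recovered from them cannot be matched to numbered replicates. The counts of called transcripts stayed within 1.5 times under the other adjustment set and under centring in all 11 comparisons, and the counts of differing transcripts did so under all 4 alternatives in all 7 difference tests. The exceptions were the threshold of 0.01, which left 1 of 2 calls for arsenite in each rescue, and the immunoprecipitation. There 0 of 6 calls were left once the Wald statistic was divided by its robust spread, which also holds any true enrichment and depletion. Centring added a KLF7 call for wild type against rescue (0.17). No called fold change or difference changed direction under any alternative run, leaving out single libraries included. For KLF2 in knockout libraries with 37 and 57 reads, leaving out the second moved the log2 ratio of the wild-type rescue from 3.03 to 3.49, and leaving out the first moved it to 2.68. KLF4 ratios moved by over 1.5-fold with single libraries, on 0 to 17 reads. For arsenite in the NTF2-deletion rescue, KLF2 was at -0.38 as deposited and at -0.51 as a log2 ratio of reads. Depth limits KLF4 in U2OS cells and KLF2 in the immunoprecipitation.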
